A study of Homo sapiens with 8 samples.

Results

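The 10 genes described here form the core of the NRF2 system and of the first enzymatic defence against reactive oxygen. They were chosen by symbol from a table of 23346 genes. All 10 were found, once each: NFE2L2, KEAP1, GCLC, GCLM, TXNRD1, SRXN1, NQO1, SOD1, SOD2 and CAT. Polyadenylated RNA was sequenced from hCMEC/D3, an immortalised human brain endothelial line that is widely used to model the blood-brain barrier in culture. The 8 libraries carry the same labels, with no treatment, genotype or time point named, and so form 1 group (n = 8). The labels do not say whether they came from separate cultures, so a p-value measures only the spread between these libraries, which may be technical.

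NRF2, the protein of NFE2L2, is a transcription factor that is held at a low level in unstressed cells because KEAP1 presents it to a CUL3 ubiquitin ligase. Electrophiles and oxidants modify cysteines of KEAP1, NRF2 then escapes degradation, and with a small MAF partner it binds antioxidant response elements in genes for glutathione synthesis, thioredoxin recycling and quinone reduction. NRF2 is controlled mainly as a protein, so its mRNA level is not a measure of its activity. In brain endothelium these genes matter because the cells face blood-borne oxidants and drugs and are known to be rich in mitochondria.

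The consensus core of the antioxidant response element, TGACNNNGC, was searched on both strands in the window from 1000 bases before to 100 bases after the canonical transcript start of each gene (GRCh37). The matches in 4 of the members are shown because this element is the DNA feature through which NRF2 acts on its targets. Each is printed 5′ to 3′ on the strand of the match, with the core in capitals and 10 bases on each side.
NQO1 (chr16:69760910-69760918, minus strand, 455 bases before the start): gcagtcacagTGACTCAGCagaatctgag
GCLM (chr1:94375012-94375020, plus strand, 34 bases before the start): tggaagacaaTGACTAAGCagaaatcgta
GCLC (chr6:53410761-53410769, plus strand, 870 bases before the start): aaatatgtgtTGACAGAGCaatgacctgt
TXNRD1 (chr12:104609458-104609466, plus strand, 99 bases before the start): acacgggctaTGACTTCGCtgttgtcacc
TXNRD1 (chr12:104609549-104609557, minus strand, 8 bases before the start): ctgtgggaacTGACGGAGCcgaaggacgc

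The positions are those of the capitals, and the distance is that of the core's end farther from the gene. Over all protein-coding genes, 6657 of 18617 windows held this core (35.8%), and in a wider list of antioxidant genes, described at the end, 48 of 105 did (45.7%). The matches printed are not a full count of the members, so no share of members is set beside these values. A stricter form, the same core followed by A, was found in NQO1, GCLM and GCLC, so in 3 of 10 members. It was found in 1863 of the 18617 windows and in 16 of 105 in the wider list. Whether the members' share exceeds these was not tested. The 3 genes act in quinone reduction and glutathione synthesis, but TXNRD1 and SRXN1, also targets of NRF2, lacked the stricter form. A match describes letters only, and a window without these letters says nothing about binding elsewhere.

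The libraries held 69388544 to 90205244 counts, of which the 10 members took between 0.208% and 0.259%. No count in the table was odd, which makes 2 counts the finest step. The lowest count of a member in any library was 1478, of CAT, where counting error alone is 2.60% (Poisson), or 3.68% if each read was counted 2 times. That is large beside the coefficient of variation of CAT over the libraries (4.99%), whereas those of the other members were 12.1% or more. All 10 endothelial markers examined were detected, defined as at least 1 CPM (counts scaled to a common library size, with TMM factors) in every library, at a summed level of 3315 to 5423 CPM. None of the 4 astrocyte, 4 microglial or 4 epithelial markers was detected, and AQP4 had no count. Of the 4 neuronal and 4 mural cell markers, 2 each were detected, led by TUBB3 (53.7 CPM) and RGS5 (14.4 CPM). Replicates 2, 7 and 8 stood apart before any member was considered. Their genes deviated from the gene means along transcript length with slopes of -0.22, -0.11 and -0.35 (log2 per doubling of length), whereas the other 5 libraries had slopes of 0.08 to 0.15. Long transcripts were thus counted relatively less in replicates 2, 7 and 8. The labels name no batch.

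All 10 members were detected, as were 51.3% of the genes in the table. Their levels were compared as RPKM (CPM per 1000 exon bases of the canonical transcript inside the deposited gene span), since CPM favours long transcripts. TXNRD1 was the highest at 317 ± 57.2 RPKM (SD, n = 8) and GCLC the lowest at 6.83 ± 0.973. Between them, in falling order, stood SOD1 (248 ± 59.4), NQO1 (155 ± 33.7), NFE2L2 (49.7 ± 6.01), SOD2 (43.7 ± 6.30), KEAP1 (38.2 ± 7.33), GCLM (23.6 ± 6.56), SRXN1 (15.7 ± 2.20) and CAT (9.57 ± 0.478 RPKM). Among 11579 detected genes with a length, TXNRD1, SOD1 and NQO1 ranked 183, 247 and 467, all within the top 4.03%. CAT and GCLC ranked 6788 and 7810. The median of the 10 members was 40.9 RPKM, beside 12.7 RPKM over all detected genes.

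**Figure D1:**
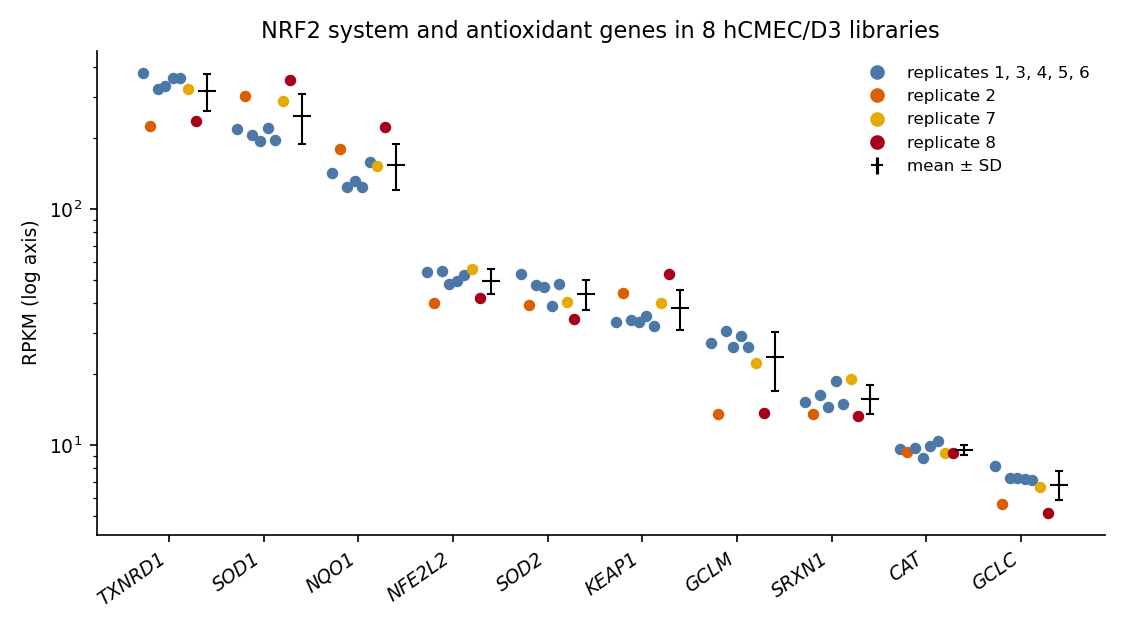
RPKM (log axis) of the 10 members, ordered by mean, in each of the 8 libraries in replicate order; black marks give mean ± SD and colours pick out replicates 2, 7 and 8. TXNRD1, SOD1 and NQO1 lie above 120 RPKM in every library, and CAT and GCLC below 11.

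All 45 pairs of members were compared within libraries by the log2 ratio of RPKM + 0.1, using an exact permutation test that flips signs (two-sided) and Benjamini-Hochberg adjustment over the 45 pairs. In total 43 pairs differed at an adjusted p under 0.05. The 2 that did not were neighbours in the order. TXNRD1 exceeded SOD1 by 0.37 ± 0.58 (log2, SD) in 6 of 8 libraries (exact permutation p = 0.125, adjusted p = 0.128), and passed the test without replicate 2 (0.48, adjusted p = 0.0479) or without replicate 8 (0.50, adjusted p = 0.0479). SOD2 exceeded KEAP1 by 0.20 ± 0.45 in 6 of 8 libraries (exact permutation p = 0.273, adjusted p = 0.273). The closest pair that did pass was NFE2L2 over SOD2, by 0.19 ± 0.17 in 8 of 8 libraries (exact permutation p = 0.00781, adjusted p = 0.00857). With 8 libraries 0.00781 is the smallest p this test can give. The order of NFE2L2, SOD2 and KEAP1 rests on the lengths assumed: with the longest coding transcript of each gene, the log2 ratio was -0.38 for NFE2L2 to SOD2 and -0.13 for NFE2L2 to KEAP1. On the authors' normalised values, described below, NFE2L2 lay below SOD2 (log2 ratio -1.03) and SOD1 below NQO1 (-0.71), each in 8 of 8 libraries (exact permutation p = 0.00781, adjusted p = 0.00818). On those values TXNRD1 exceeded SOD1 by 1.76 and SOD2 exceeded KEAP1 by 1.10, and both pairs passed, also in 8 of 8 libraries (exact permutation p = 0.00781, adjusted p = 0.00818). Between genes the authors' values lie closer to CPM than to RPKM. On CPM not per length the log2 ratios were -0.56 (NFE2L2 to SOD2), -0.82 (SOD1 to NQO1), 2.47 (TXNRD1 to SOD1) and 0.88 (SOD2 to KEAP1).

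The regulators come first. NFE2L2 (chromosome 2, 178095031 to 178129859, minus strand, 5 exons; its span holds the listed microRNA gene MIR3128) had 133, 97.6, 134, 118, 122, 129, 137 and 103 CPM in replicates 1 to 8. It was lowest in replicates 2 and 8, and the other 6 libraries lay within 118 to 137 CPM. KEAP1 (chromosome 19, 10596796 to 10614054, minus strand, 6 exons), the cysteine-rich sensor and substrate adaptor, had 85.9, 113, 87.3, 85.2, 90.8, 82.4, 102 and 137 CPM. Its 3 highest values were those of replicates 2, 7 and 8. The RPKM ratio of KEAP1 to NFE2L2 was 0.618, 1.10, 0.622, 0.687, 0.711, 0.610, 0.712 and 1.27 in replicates 1 to 8. The sensor's mRNA was therefore below that of the factor in 6 libraries and above it in replicates 2 and 8. These counts rest on the lengths assumed. With the longest coding transcript of each gene, the mean log2 ratio of NFE2L2 to KEAP1 was -0.13 (exact permutation, adjusted p = 0.453). Over all 8, with the canonical length, NFE2L2 exceeded KEAP1 by 0.39 ± 0.40 (log2, SD; exact permutation p = 0.0312, adjusted p = 0.0327). That call was lost on leaving out any of replicates 1 and 3 to 7 (0.35 to 0.38, adjusted p = 0.0654). On the authors' normalised values the 2 genes differed by 0.07 ± 0.13 in 5 of 8 libraries (exact permutation p = 0.219, adjusted p = 0.224). On CPM not per length NFE2L2 exceeded KEAP1 by 0.32 (exact permutation, adjusted p = 0.0639).

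Glutathione synthesis starts with glutamate-cysteine ligase, whose catalytic subunit is GCLC and whose modifier subunit, GCLM, raises the enzyme's affinity for glutamate and eases feedback inhibition. GCLM (chromosome 1, 94352590 to 94375012, minus strand, 7 exons) had 82.3, 41.5, 93.1, 79.5, 88.8, 79.6, 68.4 and 42.0 CPM in replicates 1 to 8. Replicates 2 and 8 were far below the others, and the highest library was 2.25 times the lowest, the widest range of any member. GCLC (chromosome 6, 53362140 to 53409927, minus strand, 16 exons) had 31.0, 21.4, 27.5, 27.6, 27.4, 26.9, 25.2 and 19.7 CPM. It too was lowest in replicates 2 and 8. The modifier exceeded the catalytic subunit in 8 of 8 libraries, with RPKM ratios of 3.27, 2.38, 4.16, 3.54, 3.99, 3.63, 3.33 and 2.62 (exact permutation p = 0.00781, adjusted p = 0.00857). With the whole canonical transcript as length, the mean log2 ratio of GCLM to GCLC went from 1.73 to 1.05, and GCLM no longer exceeded SRXN1 (log2 ratio -0.14, exact permutation, adjusted p = 0.320); that transcript runs past the deposited gene span.

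Thioredoxin and sulfiredoxin recycling is represented by TXNRD1, the cytosolic selenoenzyme that reduces thioredoxin with NADPH, and by SRXN1, which restores over-oxidised peroxiredoxins. TXNRD1 (chromosome 12, 104609559 to 104744062, plus strand, 17 exons) had 1452, 861, 1245, 1279, 1376, 1382, 1235 and 906 CPM in replicates 1 to 8. It was lowest in replicates 2 and 8, yet every library held at least 861 CPM. Its span holds a second listed gene, EID3, and whether reads were assigned by strand was not stated. SRXN1 (chromosome 20, 627268 to 633890, minus strand, 2 exons) had 38.6, 34.3, 41.2, 36.6, 47.2, 37.7, 48.2 and 33.4 CPM. Its highest values were in replicates 7 and 5. TXNRD1 exceeded SRXN1 16.4- to 24.6-fold in RPKM within libraries.

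NQO1 reduces quinones by transferring a pair of electrons at once, which avoids semiquinone radicals. It (chromosome 16, 69743304 to 69760533, minus strand, 6 exons) had 359, 456, 312, 332, 314, 399, 383 and 563 CPM in replicates 1 to 8. Replicate 8 was the highest and replicate 2 the next, the reverse of TXNRD1 and GCLM. The RPKM ratio of TXNRD1 to NQO1 was 2.66, 1.24, 2.62, 2.53, 2.88, 2.28, 2.12 and 1.06. TXNRD1 was higher in 8 of 8 libraries (exact permutation p = 0.00781, adjusted p = 0.00857), by the least in replicates 8 and 2. NQO1 lay above its regulator NFE2L2 by 1.62 ± 0.44 (log2, SD) in 8 of 8 libraries (exact permutation p = 0.00781, adjusted p = 0.00857).

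The superoxide dismutases turn superoxide into hydrogen peroxide, SOD1 mainly in the cytosol with copper and zinc and SOD2 in the mitochondrial matrix with manganese, and CAT breaks down hydrogen peroxide in peroxisomes. SOD1 (chromosome 21, 33031935 to 33041243, plus strand, 5 exons) had 196, 271, 184, 175, 197, 175, 258 and 316 CPM in replicates 1 to 8. The 3 highest values were those of replicates 8, 2 and 7. SOD1 has the shortest transcript of the members (894 nt) and 3 named pseudogenes with which reads could be shared. SOD2 (chromosome 6, 160100149 to 160114353, minus strand, 5 exons) had 220, 162, 197, 193, 160, 198, 167 and 142 CPM. It was lowest in replicate 8 and highest in replicate 1. CAT (chromosome 11, 34460472 to 34493607, plus strand, 13 exons) had 22.2, 21.4, 22.4, 20.4, 22.7, 23.9, 21.4 and 21.2 CPM. It was the steadiest member, with a coefficient of variation of 4.99%, whereas those of the others were 12.1% (NFE2L2) to 27.8% (GCLM). SOD1 exceeded SOD2 4.07- to 10.2-fold in RPKM, and SOD2 exceeded CAT 3.70- to 5.46-fold. Both ratios, like the place of SOD2 in the order, depend on the length taken for SOD2, whose canonical transcript has 4119 nt inside the deposited span and 14167 nt in all. With the latter, the mean log2 ratio of SOD2 to CAT went from 2.17 to 0.39, and that of SOD1 to SOD2 from 2.48 to 4.25. SOD2 then lay below KEAP1 (log2 ratio -1.57, exact permutation, adjusted p = 0.00901) and SRXN1 (-0.30, adjusted p = 0.0176), with a ratio of -0.17 to GCLM (adjusted p = 0.216). On the authors' values, SOD1 and SOD2 differed by 0.15 ± 0.38 (log2, SD; exact permutation p = 0.305, adjusted p = 0.305). Between genes those values lie closer to CPM than to RPKM. On CPM not per length the log2 ratio of SOD1 to SOD2 was 0.28 (exact permutation, adjusted p = 0.188).

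**Figure D2:**
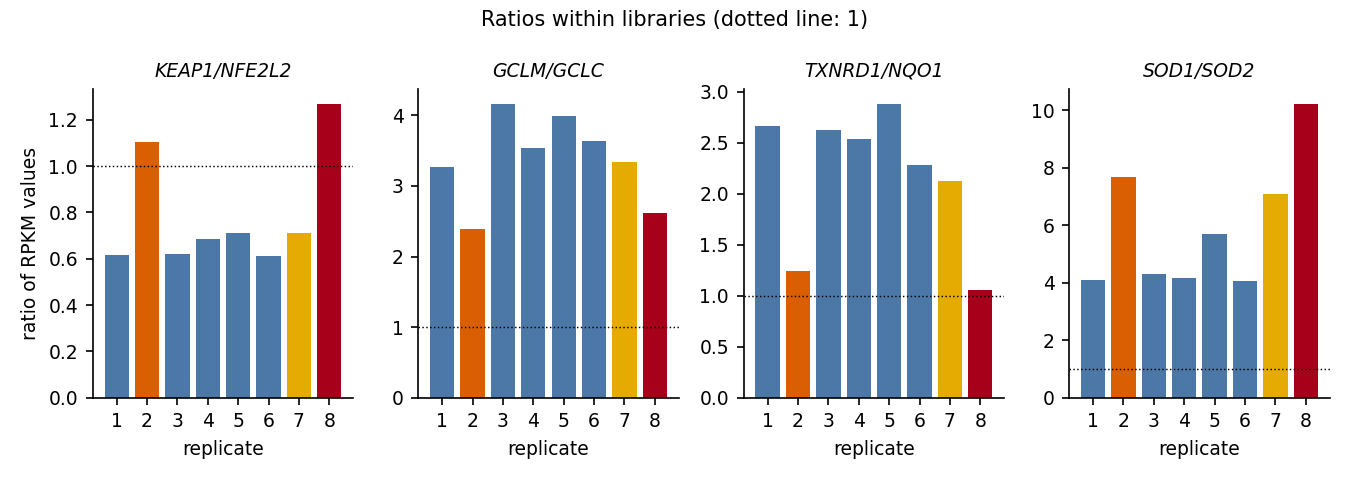
Ratios of RPKM within each of the 8 libraries for 4 functional pairs, with a dotted line at 1; colours pick out replicates 2, 7 and 8. KEAP1 exceeds NFE2L2 only in replicates 2 and 8, where TXNRD1 comes closest to NQO1 (1.24 and 1.06).

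Whether the members varied more between libraries than genes of like abundance was tested by goodness of fit to edgeR's trended dispersion over all 11980 detected genes. Of these, 4.66% were above the trend at an adjusted p under 0.05. No member was (0 of 10; 0 at an unadjusted p under 0.05). The member nearest to it was GCLM (edgeR adjusted p = 0.570). With DESeq2's fitted trend, which called 23.5% of genes, GCLM was called (adjusted p = 0.0120). With each library's trend on length and GC content removed, which called 6.35%, NQO1 was called instead (edgeR adjusted p = 0.0195). The median SD of log2(CPM + 0.1) was 0.23 over the members and 0.28 over all detected genes.

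The members' levels were next set against the length slope of the libraries, computed without the members and the wider antioxidant list. The test was an exact two-sided permutation of Pearson's r over all pairings of levels with slopes, run for all 11980 detected genes with adjustment over all of them. A positive r means a higher level where long transcripts were counted more. By this test 68.4% of all detected genes were related to the slope, 31.6% positively and 36.8% negatively, so 7 of 10 members (4 positive, 3 negative) is near the share in the whole table. The slope comes from the same libraries, so these relations describe how members move with the libraries' main difference.

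SOD1 (r = -0.98, exact permutation p = 7.44e-04, adjusted p = 0.00307; rho = -0.79, exact p = 0.0279, adjusted p = 0.0628) and KEAP1 (r = -0.98, exact permutation p = 2.98e-04, adjusted p = 0.00215; rho = -0.88, exact p = 0.00724, adjusted p = 0.0293) were higher where long transcripts were counted less (n = 8). Replicates 2 and 8 had the slopes farthest from the median, and without them r was -0.95 for SOD1 and -0.96 for KEAP1. Neither passed there (exact permutation, adjusted p = 0.0915 and 0.0659), and none of 12160 genes did. NQO1 also had a negative r (-0.86, exact permutation p = 0.00697, adjusted p = 0.0131; rho = -0.52, exact p = 0.197, adjusted p = 0.264; n = 8), but r was -0.33 without those 2 libraries, so this relation rested on them. The call for NQO1 was lost without replicate 2 (r = -0.85, adjusted p = 0.0709) or replicate 8 (r = -0.71, adjusted p = 0.116).

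GCLC (r = 0.94, exact permutation p = 7.44e-04, adjusted p = 0.00307; rho = 0.83, exact p = 0.0154, adjusted p = 0.0437), GCLM (r = 0.93, exact permutation p = 0.00444, adjusted p = 0.00918; rho = 0.71, exact p = 0.0576, adjusted p = 0.105), TXNRD1 (r = 0.89, exact permutation p = 0.00925, adjusted p = 0.0166; rho = 0.88, exact p = 0.00724, adjusted p = 0.0293) and SOD2 (r = 0.85, exact permutation p = 0.00427, adjusted p = 0.00890; rho = 0.93, exact p = 0.00223, adjusted p = 0.0152) had positive r (n = 8). Without replicates 2 and 8, r was 0.68 for GCLC, 0.73 for GCLM, 0.48 for TXNRD1 and 0.67 for SOD2. The calls for GCLM and TXNRD1 were lost without replicate 7 (adjusted p = 0.0534 and 0.0511), although r was higher there (0.96 and 0.93). Leaving out a library allows fewer pairings, and the smallest possible exact p was then 1.98e-04, against 2.48e-05 over all 8. Without replicate 7, 65.6% of all genes tested still passed, and why the calls for GCLM and TXNRD1 were lost was not tested. The call for SOD2 was lost without replicate 8 (r = 0.73, adjusted p = 0.0884). NFE2L2 (r = 0.71, exact permutation p = 0.0477, adjusted p = 0.0667; rho = 0.52, exact p = 0.197, adjusted p = 0.264), CAT (r = 0.44, exact permutation p = 0.276, adjusted p = 0.321; rho = 0.52, exact p = 0.197, adjusted p = 0.264) and SRXN1 (r = 0.35, exact permutation p = 0.393, adjusted p = 0.441; rho = 0.33, exact p = 0.428, adjusted p = 0.499) did not pass (n = 8). For NFE2L2 and SRXN1, r turned to -0.43 and -0.79 without replicates 2 and 8, and for CAT it was 0.27. NFE2L2 passed without replicate 7 (r = 0.91, adjusted p = 0.0407).

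The authors also deposited CQN values. Conditional quantile normalisation is a method that can correct each library for GC content and transcript length, and which of these terms was used is not given in the sources used here. The values are read as log2, and on the CQN scale the difference between genes lies closer to CPM than to RPKM (SD over genes of the CQN value minus log2 CPM 0.48, and minus log2 RPKM 0.66). They are therefore used here mainly to compare libraries. KEAP1 lost its pattern on this scale. Its CQN values were 7.54, 7.34, 7.59, 7.51, 7.56, 7.48, 7.44 and 7.49 in replicates 1 to 8, with replicate 8 in the middle and replicate 2 lowest. GCLC had CQN values of 5.07 to 5.24, with replicate 2 in the middle and replicate 8 still the lowest. NQO1 kept its pattern, at 9.28, 9.79, 9.14, 9.23, 9.15, 9.52, 9.47 and 10.02, again with replicates 8 and 2 at the top. GCLM did as well, at 6.85, 6.24, 7.08, 6.87, 7.04, 6.90, 6.82 and 6.28, with replicates 2 and 8 lowest. SRXN1 was also lowest in these 2 libraries, at 5.85 and 5.80 against 6.22 to 6.53 elsewhere, and TXNRD1 at 10.24 and 10.30 against 10.51 to 10.66. The same held for NFE2L2, at 7.29 and 7.39 against 7.52 to 7.74.

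Set against the same length slope, 4 of 10 members passed on CQN values, beside 33.4% of all detected genes (15.0% positive, 18.4% negative). These were SOD1 (r = -0.95, exact permutation p = 0.00417, adjusted p = 0.0209; rho = -0.64, exact p = 0.0962, adjusted p = 0.255), NQO1 (r = -0.89, exact permutation p = 0.00650, adjusted p = 0.0271; rho = -0.52, exact p = 0.197, adjusted p = 0.380), GCLM (r = 0.89, exact permutation p = 0.0100, adjusted p = 0.0356; rho = 0.62, exact p = 0.115, adjusted p = 0.282) and SOD2 (r = 0.86, exact permutation p = 0.00484, adjusted p = 0.0228; rho = 0.90, exact p = 0.00456, adjusted p = 0.0653), each with n = 8. Without replicates 2 and 8 their r was -0.90, -0.42, 0.38 and 0.74. TXNRD1 just missed the threshold (r = 0.84, exact permutation p = 0.0171, adjusted p = 0.0510; rho = 0.57, exact p = 0.151, adjusted p = 0.327; n = 8). The r of KEAP1 changed sign, to 0.63 (exact permutation p = 0.0911, adjusted p = 0.167; rho = 0.48, exact p = 0.243, adjusted p = 0.434; n = 8). In replicates 2 and 8, the targets NQO1 on one side and GCLM, TXNRD1 and SRXN1 on the other thus deviated in opposite directions on both scales.

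**Figure D3:**
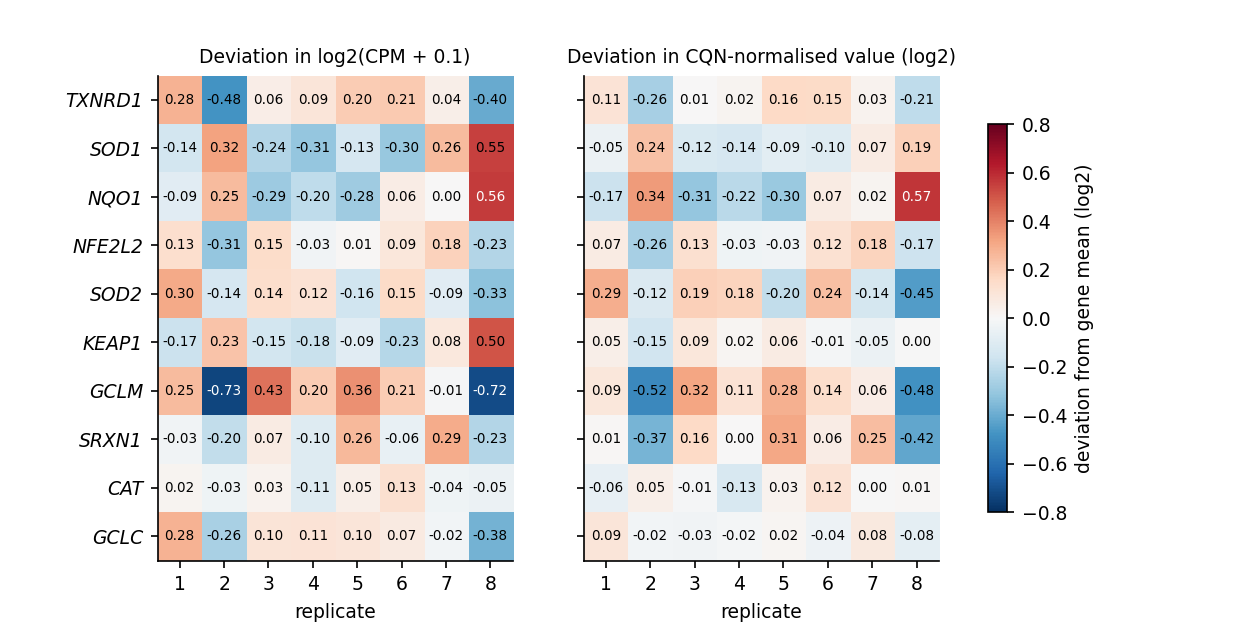
Deviation of each member (rows) from its own mean in each library (columns, replicates 1 to 8), on log2(CPM + 0.1) at left and on the authors' CQN values at right; red is above and blue below the gene's mean. In replicate 8, KEAP1 goes from 0.50 at left to 0.00 at right, whereas NQO1 keeps 0.56 and 0.57 and GCLM -0.72 and -0.48.

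The detected genes whose profile over the 8 libraries lay nearest to NFE2L2 were found by the root mean square difference of log2(CPM + 0.1) centred per gene. They were RAP1B, IKBIP, SLC25A16, SCOC and DNAJC24, at 0.03, 0.04, 0.05, 0.05 and 0.05 (log2), beside a median of 0.31 over 11979 genes. Among the members, GCLC was the nearest, at rank 586 (0.12), and SOD1 the farthest, at rank 8866 (0.43). On the CQN values 5 other genes came first (FDFT1, KLF13, TMBIM1, RAB23 and PTPN21, at 0.05 or 0.06), and among the members TXNRD1 was the nearest at rank 362 (0.10) and NQO1 the farthest at rank 10836 (0.40). The libraries differ in the length trend described above, which was not removed from the CPM values.

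A wider list of 105 genes of antioxidant and NRF2-linked function was examined beside the members, and 85 were detected. Their median was 31.2 RPKM. Of the 85, 2 were above the variation trend (edgeR, 4.66% of all genes tested). SLC7A11, the cystine carrier that feeds glutathione synthesis, had 172, 51.6, 167, 161, 171, 219.97, 110 and 64.7 CPM in replicates 1 to 8 (edgeR adjusted p = 0.00556). It was lowest in replicates 2 and 8, as were GCLM and GCLC, and the call was lost without replicate 2 (edgeR adjusted p = 0.138). CYBA, the p22phox subunit of NADPH oxidases, had 34.6, 78.6, 36.9, 36.9, 38.4, 34.9, 51.3 and 100.4 CPM (edgeR adjusted p = 0.0303). It was highest in replicates 8, 2 and 7, and the call was lost without replicate 1, 3, 4, 5, 6 or 8 (edgeR adjusted p = 0.0555 to 0.153). Neither was called with the length and GC trend removed (edgeR adjusted p = 0.570 for SLC7A11 and 1 for CYBA).

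Against the length slope, 13 of the 85 passed with a positive and 56 with a negative r in the exact permutation test. The shares in the whole table were 31.6% and 36.8%. On CQN values the counts were 9 positive and 14 negative, beside 15.0% and 18.4% of all detected genes.

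Among the partners of NRF2, 12 of 13 genes were detected and BACH2, a repressor of the same elements, was not (0.689 ± 0.171 CPM, SD, n = 8). The highest were SQSTM1 (179 RPKM), an autophagy receptor that can sequester KEAP1, RBX1 (104), the RING subunit of the CUL3 ligase, and NFE2L1 (103), the related factor that controls proteasome genes. In the glutathione group 16 of 20 were detected, led by the peroxidases GPX1 (270 RPKM) and GPX4 (215), which reduce hydrogen peroxide and lipid peroxides, and by SLC3A2 (125), the heavy chain that pairs with SLC7A11. GGT1, GPX2, GPX5 and GPX6 were not detected (0.372, 0.341, 0.00950 and 0.00328 CPM). In the thioredoxin and peroxiredoxin group 16 of 17 were detected, led by PRDX1 (504 RPKM), TXN (372) and PRDX5 (182), and SESN3 was not (0.178 CPM). TXN is the substrate of TXNRD1, and PRDX1 is among the peroxiredoxins that SRXN1 repairs.

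All 9 genes of NADPH supply were detected, with TALDO1 (158 RPKM), TKT (131) and PGD (72.4), all of the pentose phosphate pathway, at the top. In the group for quinones, carbonyls and conjugation 21 of 28 were detected, led by the glutathione transferase GSTP1 (339 RPKM), the aldose reductase AKR1B1 (296) and GSTO1 (188). All 7 haem and iron genes were detected. The ferritin chains FTL (1252 RPKM) and FTH1 (732) led this group, and the biliverdin reductase BLVRA (38.0) came next. Both ferritin chains were above every member, as were PRDX1, TXN and GSTP1. Of the 11 genes for superoxide sources and helpers, 4 were detected, with PARK7 (236 RPKM), CYBA (74.4) and CCS (21.1), the chaperone that loads copper into SOD1, in front. Several of these genes, among them FTL, FTH1 and GPX1, are known to have processed pseudogenes, and how shared reads were counted was not stated.

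**Figure D4:**
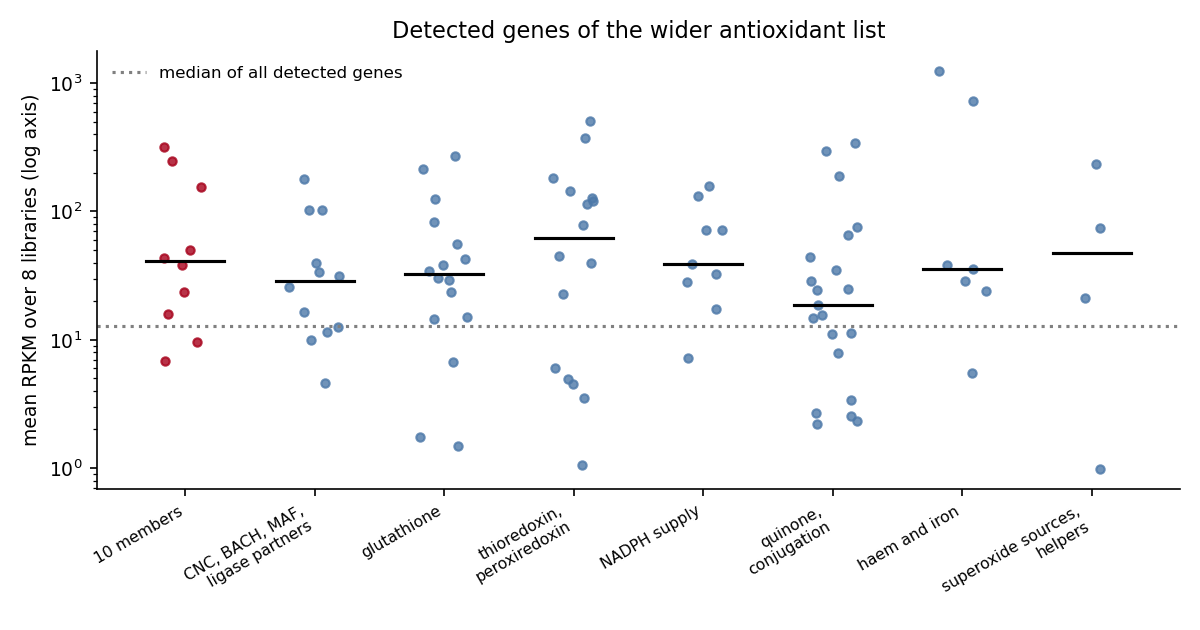
Mean RPKM over 8 libraries (log axis) of the 10 members and of the detected genes of the 7 groups of the wider list; each point is a gene, bars are group medians and the dotted line is the median of all detected genes with a length, 12.7 RPKM. The members' median is 40.9 RPKM, and FTL, FTH1, PRDX1, TXN and GSTP1 lie above all members.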

How the data were processed

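The deposited table gives raw, unnormalised counts per gene for 8 libraries, per the file headers. It also gives, per the file headers, values that the authors normalised by CQN; the range of these deposited values fits a log2 scale, on which they are read here. CASAVA 1.9, TopHat2 2.0.6, HTSeq and the build hg19 are named in the submitters' processing notes. The annotation, strand setting and CQN parameters are not given in the sources used here. Reads were prepared with an Illumina TruSeq v2 poly(A) kit, per the labels' protocols.

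CPM used TMM library sizes from the counts as deposited (edgeR 4.0.16, R 4.3.3). RPKM divided CPM by the exon bases of the Ensembl canonical transcript (GENCODE 44 on GRCh37) inside the deposited span; 17949 genes were matched by symbol and 1973 by an older name. Deposited starts count from 0 and are printed 1-based. Log2 ratios used a pseudocount of 0.1, which understates changes of low genes. Genes were called detected at 1 CPM in every library. Tests were the exact permutation tests and the edgeR goodness-of-fit test named in the text, with Benjamini-Hochberg adjustment, and were tested on simulated data. The simulated counts for the goodness-of-fit test held no length trend, so they do not show how it behaves with one. DESeq2 1.42.0 gave alternatives. With 1 group, no quasi-likelihood comparison applied. Per group of the wider list, the 3 genes with the highest RPKM, undetected genes where 5 or fewer, and genes above the variation trend are named. The 10 genes and the lists were chosen with earlier results of these data known. The length rule was set after the gene spans were seen. Other settings tried are given in the closing section. No other per-sample columns were present (0). One sequence match is not reported here.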

Additional observations from a re-analysis of the deposited data

Results flagged for a closer look

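Of 56 values tested over the 8 libraries for a single library standing apart, 2 were marked. Chance marks about 1 in 20. PGD, of the pentose phosphate pathway, had 156 CPM in replicate 8 and 139 CPM in the next highest library, a gap of 0.604 of its whole range. GPX6 had its only counts in replicate 3, at 0.0262 CPM, so the gap was 1 of the range, at a level of 1 counting step. No member was marked.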

How the results depend on the processing

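The libraries form 1 group, so no samples could be paired between groups. All 10 members were detected under every setting, and their mean CPM moved by less than 1 SD in all 120 recomputations. Pairs past the threshold numbered 42 to 44 with each library left out, 45 without replicates 2 and 8 together, and 0 without replicates 2, 7 and 8 together, where the smallest possible exact p is 0.0625; no pair changed sign in these. Leaving out 2, 7 and 8 together and the whole transcript length were settings added after seeing the data. On CQN values the log2 ratio was -0.71 for SOD1/NQO1 and -1.03 for NFE2L2/SOD2. On CPM not per length it was -0.82 and -0.56 for the same pairs and -0.22 for CAT/GCLC. With the longest transcript it was -0.38 for NFE2L2/SOD2 and -0.13 for NFE2L2/KEAP1, and with the whole canonical transcript -1.57 for SOD2/KEAP1, -0.30 for SOD2/SRXN1, -0.17 for SOD2/GCLM and -0.14 for GCLM/SRXN1. Each length setting changes these levels by construction.

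Members above the variation trend went from 0 to 1 with DESeq2's trend and to 1 with the length and GC trend removed. For the wider list the count of 2 went to 26 with DESeq2's trend (23.5% of all genes tested), to 1 with the length and GC trend removed (6.35%), to 1 to 2 with each library left out (3.15% to 4.09%), to 1 without replicates 2 and 8 together (HMOX1; 2.75%) and to 5 without replicates 2, 7 and 8 together (2.42%); the cause was not tested. The 5, named after their values were seen, were MAFF, MAFK, CHAC1, TXNIP and HMOX1, and neither SLC7A11 nor CYBA was among them. Members related to the length slope went from 7 (68.4% of all genes tested) to 4 on CQN values (33.4%), to 4 by Spearman's rho (35.2%), to 5 to 7 with each library left out (51.0% to 65.9%), and to 0 without replicates 2 and 8 together, where the smallest exact p is 0.00139 and none of 12160 genes passed. On CQN values r was 0.63 for KEAP1 and -0.23 for CAT; without replicates 2 and 8 together it was -0.43 for NFE2L2 and -0.79 for SRXN1.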

Other observations

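HMOX1 and TXNIP are given here as 2 further genes of the wider list, chosen after their values were seen. HMOX1, the inducible haem oxygenase and a target shared by NRF2 and the repressor BACH1, had 24.5, 34.8, 28.6, 26.6, 40.0, 31.4, 55.3 and 56.8 CPM in replicates 1 to 8. It was highest in replicates 8 and 7, and replicate 5 came before replicate 2, so its order differed from that of NQO1. It did not pass the variation test over all 8 libraries (edgeR adjusted p = 0.472). With each library left out in turn it did not pass either (edgeR adjusted p = 0.267 to 0.8575). Nor did it pass with the length and GC trend removed (edgeR adjusted p = 0.335). It passed without replicates 2 and 8 (edgeR adjusted p = 0.00447, 2.75% of all genes called). Without replicates 2, 7 and 8 it also passed (edgeR adjusted p = 0.0141, 2.42% called). The same held with DESeq2's trend (adjusted p = 0.00655, 23.5% called). TXNIP, which binds and inhibits thioredoxin, had 254, 380, 167, 201, 144, 175, 132 and 365 CPM. Its 2 highest values were those of replicates 2 and 8, where TXNRD1 was lowest, and its lowest was that of replicate 7. It did not pass over all 8 libraries (edgeR adjusted p = 0.0536) or without replicates 2 and 8 together (edgeR adjusted p = 0.189). Without any 1 of replicates 1 to 7 it did not pass either (edgeR adjusted p = 0.0562 to 0.1955). It passed without replicate 8 (edgeR adjusted p = 0.0244, 3.15% of all genes called). Without replicates 2, 7 and 8 it also passed (edgeR adjusted p = 2.74e-04, 2.42% called). The same held with DESeq2's trend (adjusted p = 1.06e-05, 23.5% called). With the length and GC trend removed it passed as well (edgeR adjusted p = 3.21e-13, 6.35% called).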
